A study of Mus musculus with 8 samples.

Results

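Of the 23366 genes in the count tables, 10 genes of Paneth cell granules are described here: Lyz1, Defa22, Defa5, Defa17, Mptx2, Mptx1, Ang4, Mmp7, Itln1 and Pla2g2a. They were chosen by name as products that Paneth cells secrete. All 10 had reads in each of the 8 libraries and passed the filter on low counts, which left 20427 genes to test.

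The libraries were made from total RNA of intestinal epithelial cells of male littermate mice aged 6 weeks. Sox4cKO mice carried Sox4fl/fl:vilCre+/-, in which the villin promoter drives Cre in the epithelium from embryonic life onward, and control mice carried Sox4fl/fl without Cre, so all animals shared the floxed alleles. CD326+ cells of each animal, the epithelial fraction, were sorted into a CD44+ gate enriched for crypt cells (CD44plus) and a CD44- gate enriched for villus cells (CD44minus), and 50000 cells went into a library. The groups were Sox4cKO CD44plus, control CD44plus, Sox4cKO CD44minus and control CD44minus, each with 2 libraries from 2 animals, and the value of replicate 1 is given before that of replicate 2 throughout. The labels do not say which part of the intestine was used, nor the mouse strain.

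Paneth cells are secretory cells at the base of small-intestinal crypts, where they sit between the stem cells. They are packed with granules of antimicrobial proteins, which they release into the crypt, and they depend on Wnt signalling and on the transcription factors Atoh1 and Sox9. Lyz1 is the lysozyme of these granules and cleaves bacterial cell walls. Defa22, Defa5 and Defa17 are alpha-defensins, small cationic peptides that permeabilise bacterial membranes, and Mmp7 (matrilysin) is the protease that cuts mouse pro-defensins into active peptides. Ang4 is a bactericidal ribonuclease of the angiogenin family, Pla2g2a is a secreted phospholipase that attacks membranes of Gram-positive bacteria, Itln1 is a lectin that binds microbial glycans, and Mptx1 and Mptx2 are pentraxins of mucosal tissue.

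The alpha-defensins are a family of close copies on chromosome 8, and their sequences bear on what the counts can show. Reads that fit more than 1 place were not counted to any gene, so near-identical copies lose reads. The first 90 coding bases of 4 family members, which encode the signal peptide and the start of the pro-segment, are shown to make this visible. Defa24, the family row with the most reads, stands beside the 3 chosen genes, and capitals mark bases that differ from Defa22.
Defa22: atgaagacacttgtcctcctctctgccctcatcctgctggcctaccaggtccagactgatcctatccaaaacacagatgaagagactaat
Defa5: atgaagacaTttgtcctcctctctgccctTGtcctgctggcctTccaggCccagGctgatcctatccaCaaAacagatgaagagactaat
Defa17: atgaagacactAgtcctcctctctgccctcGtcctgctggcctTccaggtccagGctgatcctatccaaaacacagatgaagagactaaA
Defa24: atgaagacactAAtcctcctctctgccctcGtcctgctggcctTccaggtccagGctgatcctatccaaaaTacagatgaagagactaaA
Over these 90 bases Defa5 differed from Defa22 at 8 positions, Defa17 at 5 and Defa24 at 7. In GRCm38 the stretches lie in exon 1 on the plus strand, at chr8:21162320-21162409 for Defa22, chr8:21297439-21297528 for Defa5, chr8:21655801-21655890 for Defa17 and chr8:21734537-21734626 for Defa24.

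The last 90 coding bases, which encode most of the mature antimicrobial peptide, were less alike. Capitals again mark differences from Defa22.
Defa22: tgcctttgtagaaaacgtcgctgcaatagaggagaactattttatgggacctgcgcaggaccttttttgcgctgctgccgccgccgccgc
Defa5: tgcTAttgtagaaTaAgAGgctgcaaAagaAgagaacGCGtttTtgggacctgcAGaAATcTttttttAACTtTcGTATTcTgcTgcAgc
Defa17: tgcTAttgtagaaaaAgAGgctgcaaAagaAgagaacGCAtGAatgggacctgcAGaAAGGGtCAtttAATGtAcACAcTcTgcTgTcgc
Defa24: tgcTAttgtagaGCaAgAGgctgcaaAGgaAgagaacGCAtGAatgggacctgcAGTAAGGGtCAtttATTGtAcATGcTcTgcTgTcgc
Here Defa5 differed from Defa22 at 31 positions, Defa17 at 33 and Defa24 at 37. These stretches lie in exon 2, at chr8:21163063-21163152, chr8:21298189-21298278, chr8:21656549-21656638 and chr8:21735285-21735374 in the order listed.

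Each of the 3 chosen defensins also has a copy far closer than these. Over the whole coding sequence of 279 bases, Defa17 had 0 differences from Defa3, Defa22 had 2 from Defa21 and Defa5 had 3 from Gm10104. The annotated transcripts were cut into windows of 50 and of 100 bases, and each window was looked for, as an exact match on either strand, in the transcripts of all other GENCODE genes. Of the 50-base windows, 0.306% of Defa5, 8.05% of Defa17 and 25.1% of Defa22 were found in no other gene, against 71.9% of Defa24. At 100 bases the shares were 11.9% for Defa5, 9.4% for Defa17, 59.7% for Defa22 and 100% for Defa24. The read length is not given in the sources used here, so the share lost cannot be stated. Window shares and counts did not always go together: Gm14850 had 0% such windows at both lengths and 121 reads over the 8 libraries, and AY761185 had 100% and 0 reads.

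The other genes had far more sequence of their own. Of the 50-base windows, 83.9% of Lyz1, 82% of Mptx2, 82.1% of Mptx1, 95.3% of Ang4, 92.6% of Mmp7, 99% of Itln1 and 100% of Pla2g2a were found in no other gene, and at 100 bases all 7 were at 96.7% or above. The lysozyme pair is shown because its members took opposite sides of the gates. These are the first 60 coding bases, on the minus strand of chromosome 10 at chr10:117292779-117292838 for Lyz1 and chr10:117282183-117282242 for Lyz2, with capitals where Lyz2 differs.
Lyz1: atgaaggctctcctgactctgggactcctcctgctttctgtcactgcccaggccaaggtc
Lyz2: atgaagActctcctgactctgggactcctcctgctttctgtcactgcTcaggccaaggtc
The Lyz1 and Lyz2 coding sequences of 444 bases differed at 22 positions, and those of Mptx2 and Mptx1, of 657 bases, at 53.

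**Figure D1:**
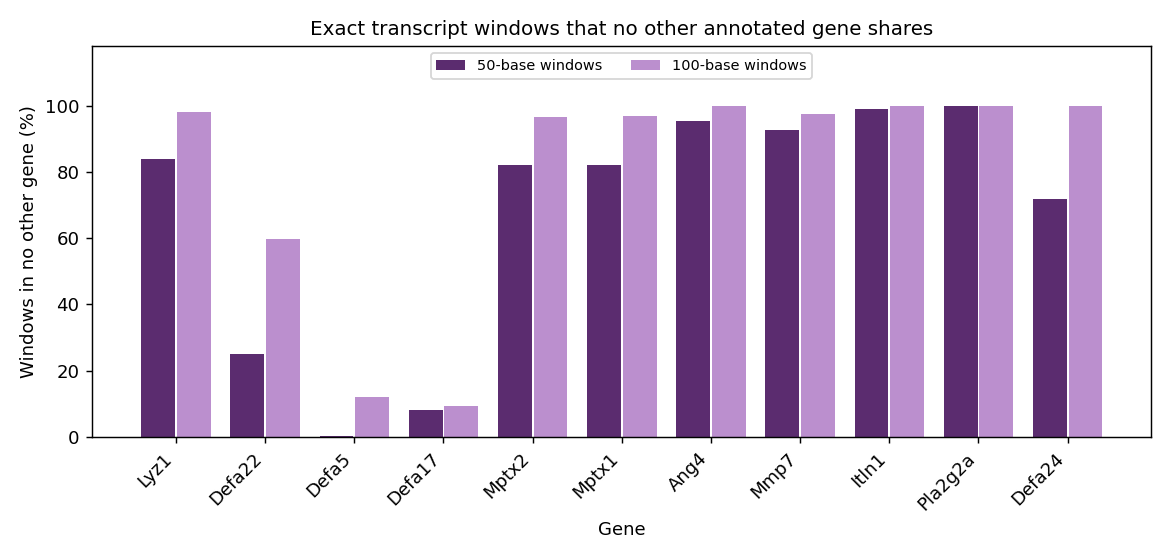
Share of the 50-base (dark) and 100-base (light) windows of each gene's annotated transcripts that occur exactly in no other gene, in percent, for the 10 Paneth cell genes and Defa24. The bars of Defa5 and Defa17 stay at or below 11.9%, while Lyz1, both Mptx genes, Ang4, Mmp7, Itln1 and Pla2g2a reach 82% or more at 50 bases.

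In GRCm38 the genes span chr10:117287797-117292868 (Lyz1), chr8:21162277-21163249 (Defa22), chr8:21297439-21298375 (Defa5), chr8:21655780-21656735 (Defa17), chr1:173274382-173277777 (Mptx2), chr1:174330518-174332873 (Mptx1), chr14:51763878-51773590 (Ang4), chr9:7692090-7699585 (Mmp7), chr1:171518122-171535294 (Itln1) and chr4:138831857-138835186 (Pla2g2a). GENCODE lists 9 of them as protein coding and Pla2g2a as a polymorphic pseudogene, since the reference strain carries an allele known to be inactive.

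Depth was uneven. Gene counts ranged from 6007554 to 13238050 in CD44plus libraries and from 886194 to 6963345 in CD44minus libraries. Levels are CPM, gene counts relative to the library total after edgeR scaled that total by the trimmed mean of M values (TMM). The Sox4cKO CD44minus libraries had TMM factors of 1.72 and 0.527, so scaling moved them apart. Reads on smell and pheromone receptor genes, which the epithelium is not known to express, summed to 2412 and 354 CPM in Sox4cKO CD44minus and 2182 and 1251 CPM in control CD44minus, against 88.2 to 402 CPM in CD44plus libraries. Sox4, the deleted gene, stood at 17.8 and 25.7 CPM in Sox4cKO CD44plus, against 128 and 120.2 CPM in control CD44plus. The gate labels matched their markers: 4 stem cell genes (Lgr5, Olfm4, Ascl2, Smoc2) summed to 3815 to 5257 CPM in CD44plus and to 54.6 to 87.5 CPM in CD44minus libraries, and 5 enterocyte genes (Alpi, Fabp1, Apoa4, Sis, Lct) to 555 to 869 CPM in CD44plus and to 4908 to 27520 CPM in CD44minus libraries.

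Together the 10 genes took 0.374 and 0.264% of all gene counts in Sox4cKO CD44plus and 0.271 and 0.212% in control CD44plus, against 0.788 and 1.32% in Sox4cKO CD44minus and 1.19 and 1.6% in control CD44minus. Their share of the library was thus higher in each CD44minus library than in each CD44plus library, in the gate labelled as villus enriched. Lyz1 alone gave 50.1 to 58.1% of the 10 genes' reads in CD44plus and 57.6 to 61.6% in CD44minus, and Itln1 32.9 to 39.9% and 29.5 to 32.1%. Per kilobase of exon, mean levels in control CD44minus ran from 5190 CPM per kb for Lyz1 and 3041 for Itln1, through 358 for Mptx2, 335 for Ang4, 195 for Defa17, 134 for Mmp7, 100.9 for Defa22 and 52 for Defa5, down to 33.4 for Pla2g2a and 14.8 for Mptx1. Mptx2 and Ang4 stood in the other order in Sox4cKO CD44minus, at 679 and 729 CPM per kb, and the defensin values lack the reads that fit several copies. In bulk RNA of sorted cells, fewer Paneth cells and less RNA per cell cannot be told apart.

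The gates were compared first, within each genotype. Across the 10 genes, the log2 fold change of CD44plus over CD44minus was negative for each in both genotypes, with a median of -2.67 in Sox4cKO and -2.22 in control, against -0.48 and -0.19 over all genes tested. In Sox4cKO 3 of the 10 were called lower in CD44plus at an adjusted p under 0.05 by edgeR's quasi-likelihood test (Defa22, Defa5 and Mptx2), where 0.93% of all genes were called lower and 2.59% in either direction. In control 0 of the 10 were called, where 0.445% of all genes were called lower and 2.46% in either direction. At an unadjusted p under 0.05 there were 6 in each genotype, where 1906 of the 20427 genes were lower in Sox4cKO and 1796 in control. DESeq2 called 8 in each, where it called 1045 of all genes lower in Sox4cKO and 1061 in control. The counts rested on single libraries and changed with the library left out. In control, whose fit shares the estimate of spread with Sox4cKO, they also changed when a Sox4cKO library was left out. These fits leave 1 library in a group, so only log2 fold changes are given here. In Sox4cKO they ran from -4.219 to -1.965 for Defa22, -4.775 to -1.642 for Defa5 and -4.624 to -1.866 for Mptx2. In control they ran from -3.261 to -1.646 for Defa22, -2.801 to -1.417 for Defa5 and -3.36 to -1.95 for Mptx2. With each of the 4 animals as a block, which pairs both gates of an animal, edgeR called 4 of the 10 lower in each genotype, Defa22, Defa5, Mptx1 and Mptx2. Calls rose over all genes too under this block. Of 20427 genes, 905 were called lower in Sox4cKO and 2153 in control, against 190 and 91 without it.

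Lyz1, the granule lysozyme and the most abundant of the set, stood at 2144 and 1660 CPM in Sox4cKO CD44plus, against 2641 and 15105 CPM in Sox4cKO CD44minus. Control Lyz1 stood at 1724 and 1194 CPM in CD44plus, against 4362 and 8748 CPM in CD44minus. Both CD44minus libraries lay above both CD44plus libraries in each genotype, but replicate 1 of Sox4cKO CD44minus only narrowly. The log2 fold change was -2.22 (SE 1.62, adjusted p = 0.446) in Sox4cKO and -2.17 (SE 1.62, adjusted p = 0.368) in control by edgeR, so neither passed.

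The 3 alpha-defensins followed the same course at far lower levels. Defa22 stood at 6.07 and 4.55 CPM in Sox4cKO CD44plus, against 20.8 and 97.5 CPM in Sox4cKO CD44minus. In control it stood at 7.68 and 5.66 CPM in CD44plus, against 20.9 and 63.7 CPM in CD44minus. Each CD44minus value was well above each CD44plus value. Defa22 was 11.2-fold lower in CD44plus in Sox4cKO (log2 fold change -3.49, SE 0.74, edgeR adjusted p = 0.0214), and in control the log2 fold change was -2.67 (SE 0.72, adjusted p = 0.0591). Paired by animal, edgeR gave -2.47 in control with an adjusted p of 0.00776.

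Defa5 stood at 3.76 and 2.56 CPM in Sox4cKO CD44plus, against 9.9 and 85 CPM in Sox4cKO CD44minus. Control Defa5 stood at 5.09 and 2.92 CPM in CD44plus, against 10.8 and 28.3 CPM in CD44minus. The gates did not overlap, and the CD44minus replicates lay far apart in both genotypes. These values rest on 16 to 57 reads in CD44plus libraries and 16 to 312 in CD44minus libraries, so that 16 reads in control CD44plus replicate 2 have an exact Poisson 95% interval of 9.15 to 26. Defa5 was 15.2-fold lower in CD44plus in Sox4cKO (log2 fold change -3.92, SE 0.86, edgeR adjusted p = 0.0232). In control the log2 fold change was -2.28 (SE 0.82, adjusted p = 0.131), and -2.18 with an adjusted p of 0.0205 when paired by animal.

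Defa17 stood at 25.7 and 24.7 CPM in Sox4cKO CD44plus, against 37.1 and 176 CPM in Sox4cKO CD44minus. In control it stood at 31.6 and 13.2 CPM in CD44plus, against 51.2 and 104 CPM in CD44minus. The gates again did not overlap, with a smaller gap than for Defa22. The log2 fold changes were -2.08 (SE 0.74, edgeR adjusted p = 0.155) in Sox4cKO and -1.79 (SE 0.74, adjusted p = 0.172) in control.

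The mucosal pentraxin genes were among the most unequal between gates. Mptx2 stood at 40.8 and 35.9 CPM in Sox4cKO CD44plus, against 141 and 938 CPM in Sox4cKO CD44minus. Control Mptx2 stood at 36.9 and 45.3 CPM in CD44plus, against 158 and 411 CPM in CD44minus. The 4 CD44plus libraries were close together and the CD44minus libraries were all at least 141 CPM. Mptx2 was 14.1-fold lower in CD44plus in Sox4cKO (log2 fold change -3.81, SE 1.00, edgeR adjusted p = 0.0487), and in control the log2 fold change was -2.79 (SE 0.95, adjusted p = 0.116), or -2.64 with an adjusted p of 0.0478 when paired.

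Mptx1, its close copy, was much scarcer, with 10 to 20 reads in CD44plus libraries. It stood at 1.45 and 1.04 CPM in Sox4cKO CD44plus, against 7.43 and 25.9 CPM in Sox4cKO CD44minus. Control Mptx1 stood at 1.79 and 2.01 CPM in CD44plus, against 8.76 and 14.9 CPM in CD44minus. No CD44plus value exceeded 2.01 CPM and no CD44minus value was below 7.43 CPM. The log2 fold changes were -3.74 (SE 0.99, edgeR adjusted p = 0.0511) in Sox4cKO and -2.64 (SE 0.95, adjusted p = 0.131) in control, and the paired fit gave adjusted p-values of 0.00283 and 0.0175. Mptx2 reads outnumbered Mptx1 reads 28.2 and 34.5 times in Sox4cKO CD44plus, 20.7 and 22.6 times in control CD44plus, 18.9 and 36.2 times in Sox4cKO CD44minus and 18 and 27.5 times in control CD44minus, with no separation of the groups.

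Ang4, the bactericidal ribonuclease, stood at 64.9 and 54 CPM in Sox4cKO CD44plus, against 176 and 857 CPM in Sox4cKO CD44minus. Control Ang4 stood at 39.3 and 38.5 CPM in CD44plus, against 140 and 335 CPM in CD44minus. The gates did not overlap in either genotype. The log2 fold changes were -3.12 (SE 0.92, edgeR adjusted p = 0.0811) in Sox4cKO and -2.61 (SE 0.90, adjusted p = 0.12) in control.

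The lectin Itln1 was second in abundance. It stood at 1585 and 1320 CPM in Sox4cKO CD44plus, against 1434 and 7412 CPM in Sox4cKO CD44minus, and the gates overlapped because replicate 1 of CD44minus lay below replicate 1 of CD44plus. In control it stood at 978 and 826 CPM in CD44plus, against 2233 and 4706 CPM in CD44minus, without overlap. The log2 fold changes were -1.61 (SE 1.37, edgeR adjusted p = 0.509) in Sox4cKO and -1.94 (SE 1.39, adjusted p = 0.351) in control.

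Mmp7 and Pla2g2a did not share the pattern. Mmp7, the defensin-cutting protease, stood at 227 and 157 CPM in Sox4cKO CD44plus, against 88.2 and 310 CPM in Sox4cKO CD44minus. Control Mmp7 stood at 113 and 173 CPM in CD44plus, against 74.1 and 212 CPM in CD44minus. In each genotype the CD44minus replicates lay on either side of both CD44plus libraries. The log2 fold changes were -0.05 (SE 0.81, edgeR adjusted p = 0.975) in Sox4cKO and -0.01 (SE 0.81, adjusted p = 0.996) in control.

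Pla2g2a, the phospholipase, stood at 50.9 and 50.9 CPM in Sox4cKO CD44plus, against 28.2 and 102 CPM in Sox4cKO CD44minus. In control it stood at 30.5 and 26.9 CPM in CD44plus, against 26.3 and 35.8 CPM in CD44minus. The gates overlapped in both genotypes. The log2 fold changes were -0.36 (SE 0.61, edgeR adjusted p = 0.737) in Sox4cKO and -0.12 (SE 0.62, adjusted p = 0.895) in control. The strain of these mice is not given, so whether they carry an active Pla2g2a is unknown.

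**Figure D2:**
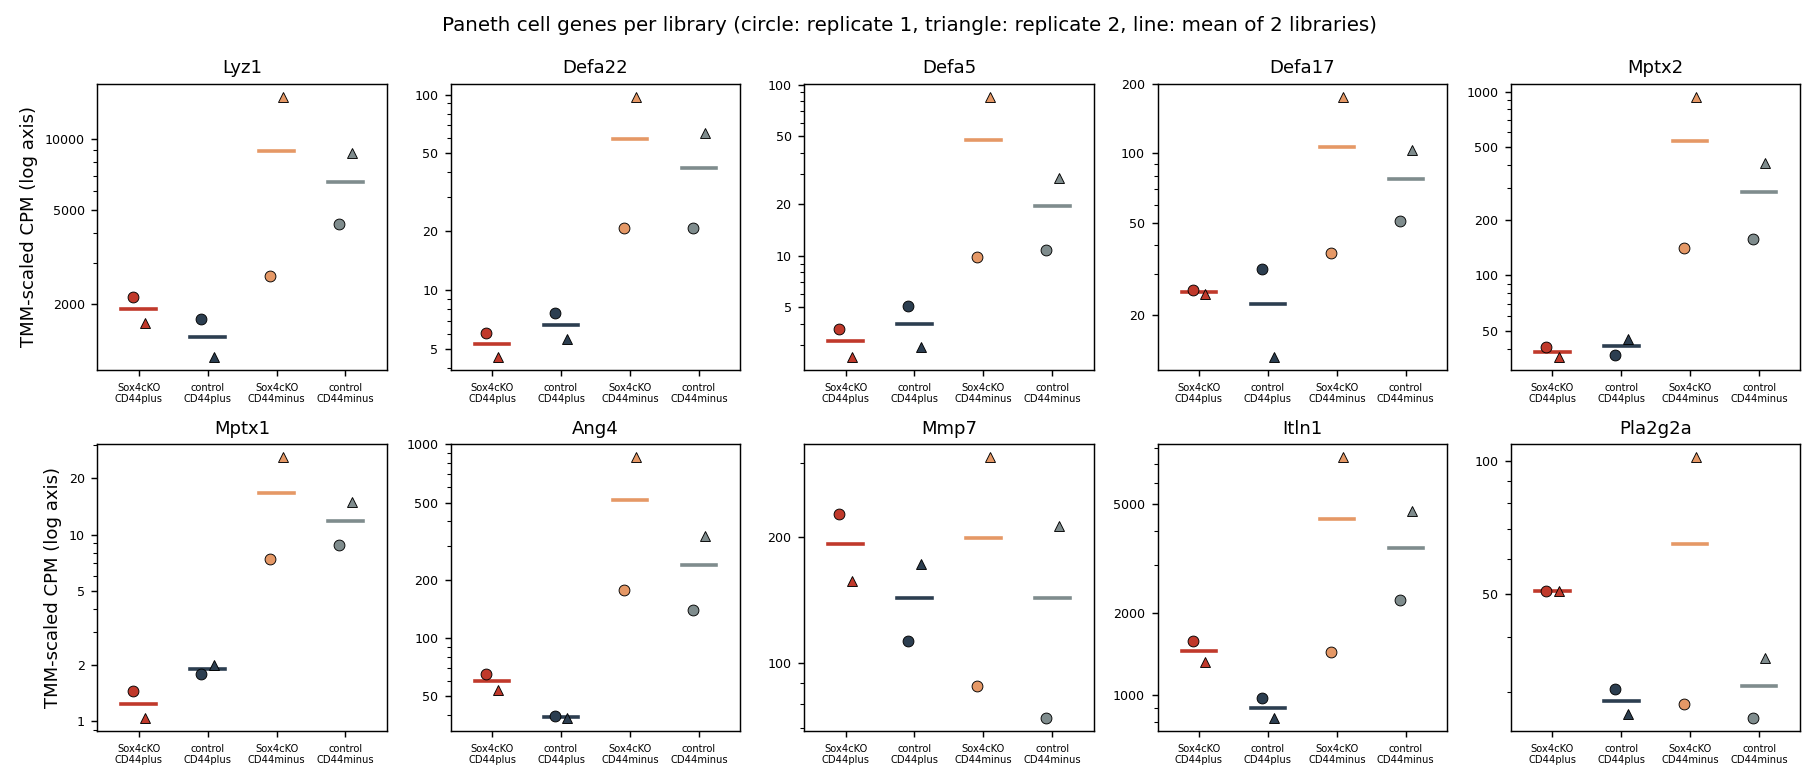
TMM-scaled CPM (log axis) of the 10 genes in each library, with circles for replicate 1, triangles for replicate 2 and a line at the mean of both, by group. In 8 panels the CD44minus libraries of control lie above the CD44plus libraries, while Mmp7 and Pla2g2a overlap, and Sox4cKO CD44minus replicate 2 is the highest library in each panel.

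Counted over the set, the gates did not overlap for 7 of 10 genes in Sox4cKO and 8 of 10 in control, each time with CD44plus lower. Over all genes tested, 16.2% were apart in that direction and 21.1% in the other in Sox4cKO, and 41% and 38.7% in control, so in control such a gap was common. The exceptions were Mmp7 and Pla2g2a in both genotypes and Itln1 in Sox4cKO.

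**Figure D3:**
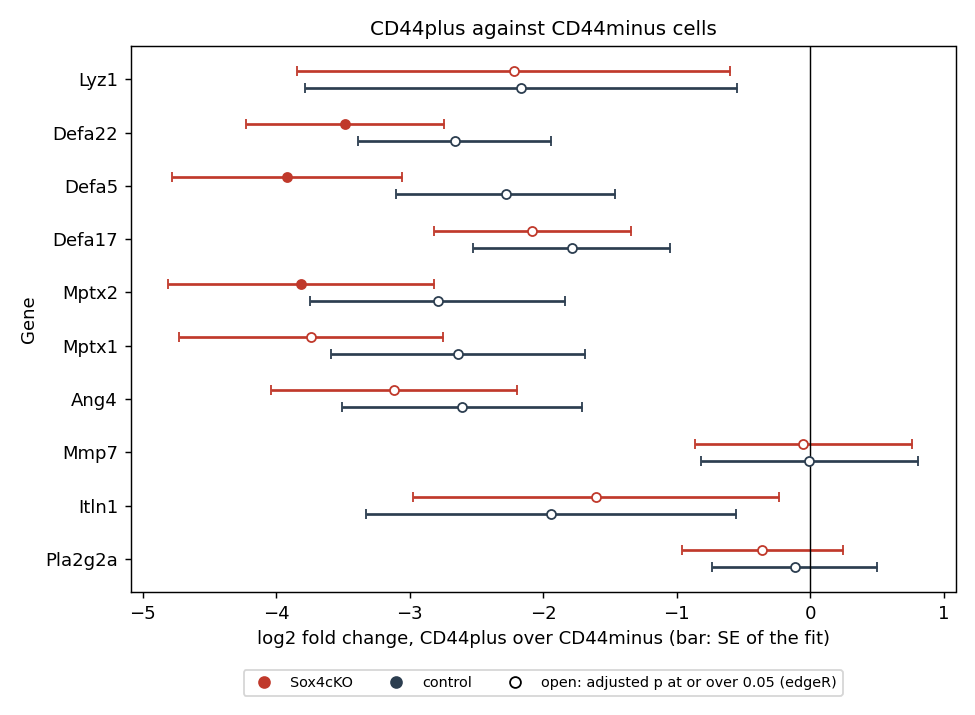
Log2 fold change of CD44plus over CD44minus with the SE of the edgeR fit for the 10 genes, Sox4cKO (red) above control (dark) for each gene, with filled points where the adjusted p is under 0.05. Defa22, Defa5 and Mptx2 in Sox4cKO are filled, and Mmp7 and Pla2g2a lie near 0.

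The ratio of 2 genes within a library does not depend on scaling. Mmp7 gave 10.6 and 9.47 reads per 100 Lyz1 reads in Sox4cKO CD44plus, against 3.34 and 2.05 in Sox4cKO CD44minus. In control it gave 6.56 and 14.5 in CD44plus, against 1.7 and 2.43 in CD44minus. All 4 CD44plus ratios were above all 4 CD44minus ratios. Pla2g2a gave 2.38 and 3.07 reads per 100 Lyz1 reads in Sox4cKO CD44plus, against 1.07 and 0.673 in Sox4cKO CD44minus. In control it gave 1.77 and 2.25 in CD44plus, against 0.602 and 0.409 in CD44minus, again without overlap. Itln1 also separated, at 74 and 79.6 reads per 100 Lyz1 reads in Sox4cKO CD44plus, against 54.3 and 49.1 in Sox4cKO CD44minus. Control Itln1 gave 56.7 and 69.2 in CD44plus, against 51.2 and 53.8 in CD44minus. Mptx2 gave 1.9 to 3.79 in CD44plus and 3.61 to 6.21 in CD44minus libraries, with overlap. Lyz1 was itself lower in CD44plus, so a gene with a smaller gate difference gives a higher ratio there. These ratios were formed after the values were seen and carry no test.

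**Figure D4:**
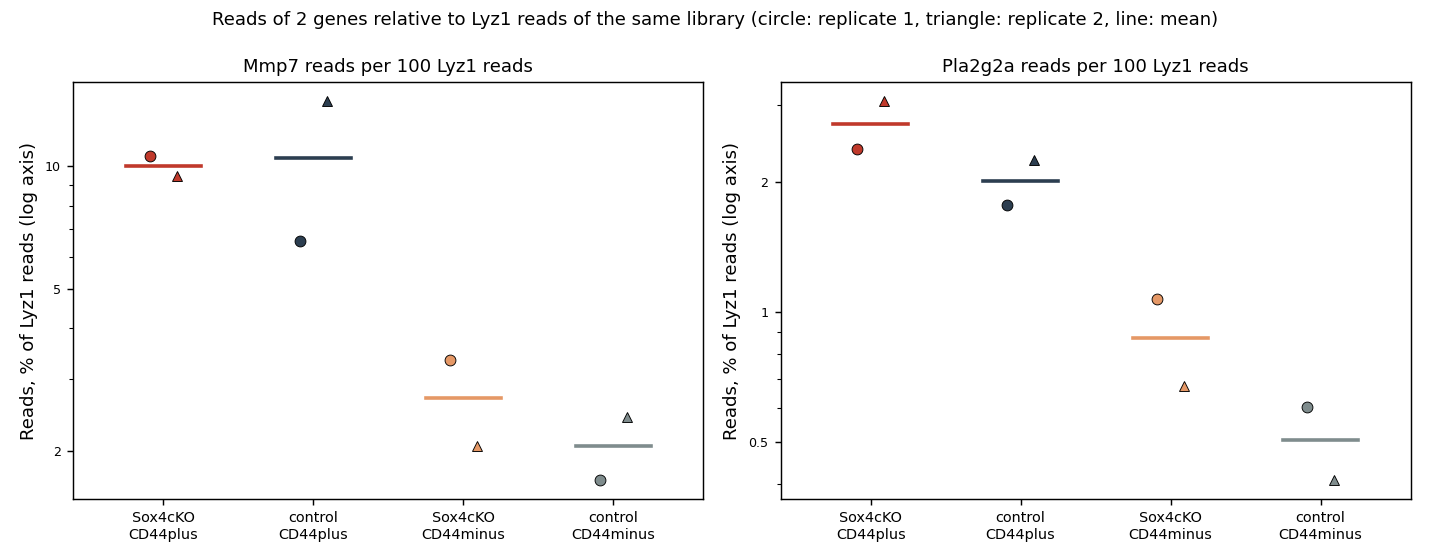
Mmp7 reads (left) and Pla2g2a reads (right) as a percentage of the Lyz1 reads of the same library (log axis), by group, with circles for replicate 1, triangles for replicate 2 and a line at the mean. In both panels each CD44plus library lies above each CD44minus library, with Mmp7 at 6.56% or more in CD44plus and at 3.34% or less in CD44minus.

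The levels of 8 of the 10 genes varied together from library to library, and Mmp7 and Pla2g2a followed less closely. Over the 8 libraries, Pearson's r of log2 CPM with Lyz1 was 0.934 for Mptx1, 0.963 for Defa22, Mptx2 and Ang4, 0.971 for Defa5, 0.983 for Defa17 and 0.986 for Itln1, against 0.546 for Pla2g2a and 0.393 for Mmp7. The libraries share the split between gates and the scaling, so these values describe the 8 libraries only. The 5 enterocyte genes had r with Lyz1 of 0.933 to 0.972, and their log2 fold changes of CD44plus over CD44minus were negative for all 5 in both genotypes, with medians of -4.43 in Sox4cKO and -3.85 in control. The 5 goblet cell genes summed to 6784 to 7662 CPM in CD44plus and 2582 to 14260 CPM in CD44minus libraries, the 4 T cell genes in the tables to 815 to 2454 and 66.7 to 222 CPM, the 4 mast cell genes to 1647 to 16790 and 7.9 to 38.1 CPM, and the 4 enteroendocrine genes to 1126 to 5500 and 104 to 157 CPM. The part of these cell types in the gate difference of the Paneth cell genes was not tested. Among 10811 genes outside the lists with a mean of at least 10 CPM, the 5 whose log2 CPM was most like that of Lyz1 were Fbln1, Dak, Phospho1, Khk and Gpd1, with r of 0.991 to 0.995, and 534 genes had an r above 0.9.

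Lyz2, the lysozyme gene best known from macrophages and neutrophils, went the other way. It stood at 57 and 96.3 CPM in Sox4cKO CD44plus, against 7.43 and 9.54 CPM in Sox4cKO CD44minus. Control Lyz2 stood at 29.8 and 62.8 CPM in CD44plus, against 3.37 and 7.86 CPM in CD44minus. Lyz2 rose in CD44plus in both genotypes by edgeR, with log2 fold changes of 3.16 (SE 0.64, adjusted p = 0.0179) in Sox4cKO and 2.98 (SE 0.66, adjusted p = 0.0267) in control. Lyz1 reads outnumbered Lyz2 reads 17.2 to 57.8 times in CD44plus libraries and 356 to 1584 times in CD44minus libraries. The 7 macrophage and neutrophil markers in the tables (Cd68, Csf1r, C1qa, C1qb, Itgam, S100a8, S100a9) summed to 76.8 and 102 CPM in Sox4cKO CD44plus, against 60.4 and 46 CPM in Sox4cKO CD44minus, and to 48.4 and 65.2 CPM in control CD44plus, against 61.3 and 43.2 CPM in control CD44minus. S100a8 was at 0 in 3 CD44minus libraries, and the part of macrophages and neutrophils in the Lyz2 level was not tested. Of the 19 tested paralogs of the other 7 genes, Lyz2 was the 1 called between gates in each genotype. Over all genes, 1.66% were called higher in CD44plus in Sox4cKO and 2.01% in control. Of the 19, 15 had negative log2 fold changes in each genotype, with medians of -1.98 in Sox4cKO and -1.58 in control. The 22 paralogs in the tables summed to only 79.55 to 166.2 CPM per library. Rows at low levels thus leaned to CD44minus too, and whether this bears on Mptx1 and Defa5 was not tested.

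Of the other 25 alpha-defensin rows, 9 had no read in any library and 12 were tested. The 4 left (Defa3, Defa20, Defa21 and Gm15293) had 2 to 14 reads over the 8 libraries, and not all lay on the same side: Defa3 had 9 and 3 reads in control CD44plus, against 0 and 1 in control CD44minus. Among those tested, the log2 fold change of CD44plus over CD44minus was negative for all 12 in both genotypes, with a median of -2.94 in Sox4cKO and -2.29 in control, and the gates did not overlap for any of the 12. Over all genes tested, 16.2% were apart in that direction in Sox4cKO and 41% in control, where such a gap was common. Of the 12, 2 were called lower in Sox4cKO (Gm15292, adjusted p = 0.0229, and Gm14851, adjusted p = 0.0358, edgeR) and 0 in control. The shares of all genes called lower were 0.93% in Sox4cKO and 0.445% in control. Defa24 held the most reads, at 988 and 895 CPM in Sox4cKO CD44plus and 1001 and 1103 CPM in control CD44plus, against 1410 and 8116 CPM in Sox4cKO CD44minus and 2251 and 5537 CPM in control CD44minus. It made up 55.6 to 64.3% of alpha-defensin CPM in CD44plus libraries and 46.5 to 49.1% in CD44minus libraries. The 3 chosen defensins together made up 1.17 to 2.46%, so most alpha-defensin reads lay in other rows.

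All 28 alpha-defensin rows, summed as 1 feature, stood at 1624 and 1391 CPM in Sox4cKO CD44plus, against 3034 and 16910 CPM in Sox4cKO CD44minus. In control they summed to 1802 and 1856 CPM in CD44plus, against 4717 and 11280 CPM in CD44minus. The sum keeps the order of the gates, and reads that fit several copies are missing from it too. Its log2 fold change was -2.73 (SE 1.70, edgeR adjusted p = 0.386) in Sox4cKO and -2.13 (SE 1.66, adjusted p = 0.386) in control. The sum thus pointed the same way as the called defensin rows but passed in neither genotype. In Sox4cKO its SE was larger than the 0.74 to 0.89 of the called rows.

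Other secretory and regulatory genes of Paneth cells were not all on the CD44minus side. Of 17 other granule and secretory genes, 5 had a positive log2 fold change of CD44plus over CD44minus in Sox4cKO and 8 in control. Kcnn4, a calcium-activated potassium channel, was higher in CD44plus in both genotypes. Its log2 fold changes were 2.88 (adjusted p = 0.0307) in Sox4cKO and 2.7 (adjusted p = 0.0443) in control by edgeR. Over all genes, 1.66% were called higher in Sox4cKO and 2.01% in control. T cell and mast cell genes were also higher in CD44plus, and the part of these cells in the Kcnn4 level was not tested. Pnliprp2, a pancreatic-type lipase, was called lower in CD44plus in Sox4cKO (-2.85, adjusted p = 0.0449, edgeR), where 0.93% of all genes were called lower. Of 17 regulators and niche ligands, 10 were positive in Sox4cKO and 13 in control, with medians of 0.33 and 1.12, and 0 were called. Sox9, needed for Paneth cell formation, stood at 330 and 338 CPM in Sox4cKO CD44plus, against 68.8 and 81.7 CPM in Sox4cKO CD44minus, and at 419 and 413 CPM in control CD44plus, against 91.6 and 74.7 CPM in control CD44minus. Sox9 thus lay on the CD44plus side in each animal, opposite to Lyz1. However, its log2 fold changes of 2.15 in Sox4cKO and 2.32 in control had adjusted p-values of 0.166 and 0.114 (edgeR). The other regulators among the most abundant of the list did not all share this side. Fzd5, Xbp1 and Tcf7l2 had log2 fold changes of -0.23, -0.04 and -1.25 in Sox4cKO, and of 0.59, 1.17 and -0.13 in control. Of 8 genes of granule sorting and autophagy, such as Atg16l1 and Atg5, 4 were positive in Sox4cKO and 5 in control, and 0 were called.

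The comparison of genotypes asks whether the set differs in epithelium without Sox4. In CD44plus, 0 of the 10 genes were called by edgeR, where 0% of all genes were called. The deleted gene Sox4 was itself not called, at a log2 fold change of -2.51 (SE 0.61, unadjusted p = 0.000642, edgeR). The lack of calls between genotypes therefore does not show that levels were equal. At an unadjusted p under 0.05 there were 0 of the 10 and 128 of all genes, and DESeq2 called 0 of the 10. The log2 fold change of Sox4cKO over control was positive for 6 and negative for 4, with a median of 0.27 against 0.00 over all genes. The animals of the genotypes did not overlap for 3 genes that were higher in Sox4cKO (Ang4, Itln1 and Pla2g2a), where 14.2% of all genes were apart upward, and for 1 that was lower (Mptx1), where 16.4% were apart downward.

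Pla2g2a gave the largest of these differences, at 50.9 and 50.9 CPM in Sox4cKO CD44plus, against 30.5 and 26.9 CPM in control CD44plus (log2 fold change 0.83, SE 0.61). Itln1 stood at 1585 and 1320 CPM in Sox4cKO, against 978 and 826 CPM in control (0.69, SE 1.34). Ang4 stood at 64.9 and 54 CPM in Sox4cKO, against 39.3 and 38.5 CPM in control (0.61, SE 0.85). The remaining log2 fold changes in CD44plus were 0.38 for Lyz1 (SE 1.55), 0.43 for Mmp7 (SE 0.81), 0.17 for Defa17 (SE 0.71), -0.10 for Mptx2 (SE 0.89), -0.34 for Defa22 (SE 0.70), -0.37 for Defa5 (SE 0.80) and -0.60 for Mptx1 (SE 0.93). All 10 had an adjusted p of 1 by edgeR.

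Of the 12 other alpha-defensin rows tested, 4 were above 0 and 8 below on the log2 scale (median -0.21), and 0 were called. The genotypes did not overlap for 7 of the 12 that were lower in Sox4cKO, where 16.4% of all genes were apart downward, and for 1 that was higher, where 14.2% were apart upward. Gm15292 stood at 13 and 15.1 CPM in Sox4cKO CD44plus, against 37 and 27.8 CPM in control CD44plus (log2 fold change -1.21, SE 0.80, edgeR adjusted p = 1), and Gm14851 at 6.07 and 4.74 CPM, against 11.6 and 11.9 CPM (-1.12, SE 0.70, adjusted p = 1). The 28 rows summed gave -0.28 (SE 1.60, adjusted p = 1), at 1624 and 1391 CPM in Sox4cKO against 1802 and 1856 CPM in control. Mast cell genes summed to 3389 and 16790 CPM in Sox4cKO CD44plus, against 1647 and 2820 CPM in control CD44plus, and enteroendocrine genes to 1126 and 1500 CPM, against 4423 and 5500 CPM, and their part in the genotype values was not tested. Among regulators, 5 of 17 were positive and 12 negative, with 0 called, and Sox9 stood at 330 and 338 CPM in Sox4cKO, against 419 and 413 CPM in control (-0.32, SE 0.75, adjusted p = 1).

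Reg3b and Reg3g, antibacterial C-type lectins made by enterocytes and Paneth cells, were the most abundant of the other granule genes after Pigr. Reg3b stood at 3314 and 1666 CPM in Sox4cKO CD44plus, against 652 and 1181 CPM in control CD44plus, and Reg3g at 3200 and 1786 CPM in Sox4cKO, against 678 and 1242 CPM in control. The genotypes did not overlap for either gene, with log2 fold changes of 1.44 (SE 1.48) and 1.38 (SE 1.44), and neither passed (adjusted p = 1, edgeR). Among the 17 other granule and secretory genes, 3 were apart upward in Sox4cKO CD44plus and 3 downward. Over all genes, 14.2% were apart upward and 16.4% downward.

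In CD44minus, 0 of the 10 genes were called between genotypes, where 0% of all genes were called. At an unadjusted p under 0.05 there were again 0 of the 10, against 116 of all genes, and DESeq2 called 0 of the 10. The log2 fold change of Sox4cKO over control was positive for all 10, from 0.35 for Itln1 (SE 1.34) to 1.27 for Defa5 (SE 0.78), with a median of 0.49 against 0.19 over all genes, but the genotypes overlapped for each gene, where 6.52% of all genes were apart upward and 5.94% downward. Replicate 2 of Sox4cKO was the highest of the 4 libraries for all 10 genes, and replicate 1 of Sox4cKO was the lowest for 7 and the second lowest for Ang4, Mmp7 and Pla2g2a. The direction changed with the scaling and with the library left out. With library totals and no TMM factor, a setting chosen after seeing the data, 4 of the 10 were positive and 6 negative, with a median of -0.21. Without Sox4cKO replicate 2 all 10 were negative, with a median of -1.02. Over all left-out libraries, the log2 fold change ran from -1.32 to 1.19 for Lyz1 and from -1.01 to 2.14 for Defa5. These fits leave 1 library in a group, so only log2 fold changes are given.

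**Figure D5:**
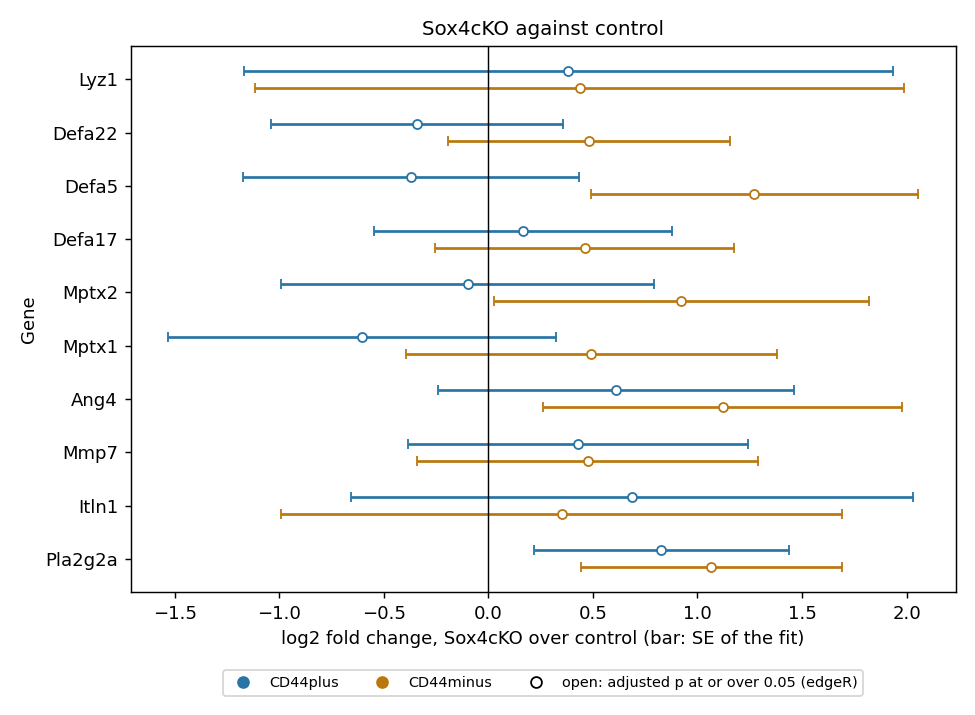
Log2 fold change of Sox4cKO over control with the SE of the edgeR fit for the 10 genes, CD44plus (blue) above CD44minus (ochre) for each gene. All points are open (adjusted p of 1), 6 lie above 0 in CD44plus, and all 10 lie above 0 in CD44minus under TMM scaling, which is not kept with library totals (4 above 0).

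The genotype effect was compared between gates by the interaction term of the same fit. The effect in CD44plus minus that in CD44minus was called for 0 of the 10 genes, where 0% of all genes were called, and 50 of all genes had an unadjusted p under 0.05. The smallest unadjusted p in the set was 0.161 (edgeR), for Defa5. The log2 difference ranged from -1.64 for Defa5 (SE 1.12) to 0.34 for Itln1 (SE 1.89).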

How the data were processed

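RNA-seq counts per gene of 8 libraries were analysed. As deposited by the authors they are raw read counts from HTSeq (0.6.1p1), after bcl2fastq (2.17.4), Trimmomatic (0.36) and STAR (2.2.5b) on mm10, per the submitters' processing notes. Library preparation was SMARTer Stranded Total RNA-seq Pico, per the labels' protocols. Read length, strand setting and annotation are not given in the sources used here. Rows that name no gene stayed out of library sizes. Reads in no feature were 64.6 to 79.3% of the listed counts in CD44plus and 76.8 to 96.7% in CD44minus libraries.

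The 10 genes, the other gene lists and the tests were chosen with earlier results of these data known. Genes that passed filterByExpr (minimum count 10) were fitted over all 8 libraries by group with edgeR (4.0.16, R 4.3.3), TMM scaling and the quasi-likelihood test, Benjamini-Hochberg adjusted over 20427 genes at 0.05. The biological coefficient of variation was 0.616. The p-values rest on the spread between the 2 animals of a group, pooled over all groups and with information shared across genes. Without a block, both gates of an animal were treated as independent libraries. Likeness to Lyz1 used log2(CPM + 1). DESeq2 (1.42.0) and limma-voom (limma 3.58.1) were alternatives, beside other scaling, filters, blocks, summed paralogs and left-out libraries. The scripts were tested on simulated data. Floors and Poisson intervals cover counting error only.

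All 10 genes are named. Of each other list, the 4 genes with the highest mean CPM were to be named, plus those that passed in any comparison, and the text gives values for part of these. File names give both gates of a replicate the same animal. The deviations of both gates from their group means correlated at 0.493 in Sox4cKO and 0.102 in control animals. Libraries of the same replicate number from different genotypes, which are different animals, correlated at 0.295 in CD44plus and 0.655 in CD44minus, so a shared number went with shared deviations across animals too. The replicate block was the animal (4 levels) for gates and the interaction, and the replicate number (2 levels), in a separate fit, for genotypes. Coding sequences and windows came from GENCODE vM21 transcripts on GRCm38, the same assembly as mm10.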

Additional observations from a re-analysis of the deposited data

How the results depend on the processing

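The number of the 10 genes called between gates moved with most settings, and each call had CD44plus lower. In Sox4cKO edgeR's count was 5 with median-of-ratios scaling, 5 with no filter on low counts, 5 with library totals and 0 from the 4 libraries alone, while limma-voom called 5 and DESeq2 8. Over all genes, 312, 353, 738 and 0 were called lower in these edgeR fits, in that order. It was 516 with limma-voom and 1045 with DESeq2. In control the count was 1 with median-of-ratios scaling, 1 without the 45S ribosomal RNA gene, 1 with no filter, 5 with library totals and 7 from the 4 libraries alone, while limma-voom called 4 and DESeq2 8. Over all genes, 176, 172, 224 and 675 were called lower in the first of these edgeR fits, in that order. From the 4 libraries alone it was 5480 of 18006 genes, with limma-voom 1230 and with DESeq2 1061. Leaving out libraries gave 0 to 9 in Sox4cKO, 0 to 8 in control and 0 to 6 between genotypes in CD44minus. The upper ends in the gates, and 4 between genotypes, came without both CD44minus replicate 1 libraries. That setting and library totals without TMM were chosen after seeing the data. Leaving out both replicate 1 libraries keeps 1 library in each CD44minus group. Calls over all genes rose as well in that fit, for the gates in both genotypes and between genotypes in CD44minus. The same held between genotypes without Sox4cKO CD44minus replicate 1, the fit that gave the upper end there. With the animal as the replicate block, 4 were called in Sox4cKO and 4 in control, where 905 and 2153 of all genes were called lower. With the replicate number as the block, in a separate fit, no call between genotypes changed. The cause of these shifts was not tested.

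Directions held under the alternatives except as follows, on the log2 scale. Between gates, Mmp7 turned to 0.22 without the 45S gene, 0.30 with limma-voom, 0.19 with the replicate block, 0.062 from the 4 libraries and 0.062 with library totals in Sox4cKO, and to 0.036 with no filter, 0.23 with limma-voom and 0.15 with the block in control. Between genotypes in CD44plus, where Defa17 itself was at 0.17, the 28 alpha-defensin rows summed in its place gave -0.28, which is a value of the sum and not of Defa17. In CD44minus, values turned to -0.015 for Itln1 without the 45S gene, -0.012 for Lyz1, -0.035 for Itln1 with limma-voom, -0.091 for Lyz1, -0.014 for Defa22, -0.045 for Defa17, -0.17 for Itln1 from the 4 libraries, and -0.43 for Lyz1, -0.27 for Defa22, -0.34 for Defa17, -0.23 for Mptx1, -0.19 for Mmp7, -0.48 for Itln1 with library totals. The interaction turned to 0.12 for Lyz1, 0.093 for Mmp7 with median-of-ratios scaling and to 0.12 for Lyz1, 0.093 for Mmp7 with DESeq2. It turned to 0.30 for Lyz1, 0.015 for Defa17, 0.31 for Mmp7, 0.075 for Pla2g2a without the 45S gene, and to 0.45 for Lyz1, 0.302 for Defa17, 0.071 for Mmp7, 0.14 for Pla2g2a with limma-voom. It turned to 0.36 for Lyz1, 0.13 for Defa17, 0.034 for Mmp7, 0.011 for Pla2g2a with the block, and to 0.72 for Lyz1, 0.398 for Defa17, 0.19 for Ang4, 0.53 for Mmp7, 0.42 for Pla2g2a with library totals.

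Leaving out libraries also turned signs. Between gates the values ran -0.701 to 1.13 for Mmp7, -2.36 to 0.028 for Itln1 and -1.01 to 0.86 for Pla2g2a in Sox4cKO, and -0.61 to 0.94 for Mmp7 and -0.35 to 0.12 for Pla2g2a in control. Between genotypes they ran -0.79 to 0.104 for Defa5, -0.33 to 0.94 for Defa17 and -0.296 to 0.056 for Mptx2 in CD44plus, and -1.32 to 1.19 for Lyz1, -1.05 to 1.5 for Defa22, -1.01 to 2.14 for Defa5, -1.08 to 1.15 for Defa17, -1.03 to 1.77 for Mptx2, -0.69 to 1.09 for Mptx1, -0.44 to 1.87 for Ang4, -0.72 to 1.42 for Mmp7, -1.28 to 1.08 for Itln1 and -0.16 to 1.68 for Pla2g2a in CD44minus. The interaction ran -0.804 to 1.7 for Lyz1, -1.84 to 0.703 for Defa22, -2.5 to 0.64 for Defa5, -0.9995 to 1.23 for Defa17, -1.86 to 0.93 for Mptx2, -1.7 to 0.084 for Mptx1, -1.26 to 1.05 for Ang4, -0.99 to 1.15 for Mmp7, -0.39 to 1.97 for Itln1 and -0.85 to 0.98 for Pla2g2a. Where this left 1 library in a group, that library was assumed to vary like the others. The number of calls over all genes changed with the library left out too. It is not given, since each of these fits leaves 1 library in a group. Depth limits Mptx1 and Defa5 most, with as few as 10 and 16 reads in a library.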
